A study of Mus musculus with 120 samples.

Results

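Nfkbia, Nfkbiz, Nfkbib, Nfkbie and Tnfaip3 encode inhibitors and modulators of the transcription factor NF-kB, and Nfkb1, Nfkb2, Rel, Rela and Relb encode its subunits. The 10 genes were taken by symbol from a table of 23481 gene symbols counted in 120 libraries of mouse bone-marrow-derived macrophages, and all 10 were present. The macrophages came from wild-type male C57BL/6 mice aged 12 weeks, carried a virus library that reports transcription factor activity (58-TF-seq), and had been replated in 96-well format before treatment. RNA was counted at its 3′ end in a modified SCRB-Seq protocol at 3 time points, labelled 0, 1 and 4 with no unit and called T0, T1 and T4 here. At each time 14 libraries were from cells given halofuginone with 2 mM proline, 14 from cells given halofuginone alone, and 12 were controls. Each arm had 7 doses with 2 libraries per dose, namely 2.4, 9.7, 39, 156, 625, 2500 and 10000 nM. The doses are described as low (2.4 and 9.7 nM), middle (39 and 156 nM) and high (625 to 10000 nM).

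Several points of the design limit what a comparison can show. The series design describes lipopolysaccharide (LPS) given after 30 minutes of pretreatment with compound, whereas the treatment protocol describes a dose curve of 4 hours. LPS is named in no library's label, and T1 and T4 are taken here to be times after it. The proline supplied to the controls is not stated, so an effect of proline alone cannot be told apart from the effect of halofuginone with proline. Nothing in the labels says that libraries of a group came from separate cultures or mice, so the p-values measure only the spread between these libraries, which may be technical.

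NF-kB works as dimers of the subunits p50 (from Nfkb1), p52 (from Nfkb2), RelA, RelB and c-Rel (from Rel), which resting cells hold in the cytoplasm bound to IkB proteins. LPS, a bacterial cell wall lipid that Toll-like receptor 4 recognises, activates the IkB kinase complex (IKK), which marks IkB-alpha (from Nfkbia) for degradation, and the freed dimers enter the nucleus. There they induce, among many inflammatory genes, their own inhibitors Nfkbia and Tnfaip3, a negative feedback that is well known in macrophages. Halofuginone occupies the proline site of glutamyl-prolyl-tRNA synthetase, so that cells respond as to a shortage of proline, and added proline competes with it.

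The NF-kB binding motif is shown in the members' promoters because several of these genes are known to be regulated by NF-kB itself. Windows of 250 bases upstream of RefSeq transcript starts (GRCm38.p6) were at hand for 7 of the 10 genes. The kappa-B consensus was found on either strand in 5 of those 7 genes. Some genes have several windows: 7 of the members' 10 windows held it, beside 2382 of 32851 windows of the same length genome-wide, which is 7.25%. The whole windows of Nfkbia (chr12:55492648-55492897, minus strand), Tnfaip3 (chr10:19015411-19015660, minus strand) and Rela (chr19:5637291-5637540, plus strand) are given 5′ to 3′, with the motif in capitals. The last base of each lies next to the transcript start.
Nfkbia: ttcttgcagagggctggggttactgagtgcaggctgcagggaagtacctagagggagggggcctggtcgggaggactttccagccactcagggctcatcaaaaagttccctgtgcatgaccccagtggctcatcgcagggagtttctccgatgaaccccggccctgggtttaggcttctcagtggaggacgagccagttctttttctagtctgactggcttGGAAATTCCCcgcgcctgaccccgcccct
Tnfaip3: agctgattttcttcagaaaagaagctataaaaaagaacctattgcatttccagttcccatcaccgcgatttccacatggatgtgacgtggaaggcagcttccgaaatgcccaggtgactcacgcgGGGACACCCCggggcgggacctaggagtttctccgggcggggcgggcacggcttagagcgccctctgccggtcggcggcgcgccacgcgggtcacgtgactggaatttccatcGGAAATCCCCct
Rela: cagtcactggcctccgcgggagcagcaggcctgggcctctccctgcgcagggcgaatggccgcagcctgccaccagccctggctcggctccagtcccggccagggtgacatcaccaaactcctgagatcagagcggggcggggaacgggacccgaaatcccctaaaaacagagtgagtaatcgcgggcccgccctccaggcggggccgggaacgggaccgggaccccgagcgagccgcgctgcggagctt
The Nfkbia motif began 29 bases before the start, and the Tnfaip3 motifs began 125 and 12 bases before it. The Rela window held no match, as did that of Nfkbib and a window at another Tnfaip3 start. Stretches of 60 bases around the motifs of Rel (chr11:23771027-23771086, minus strand), Nfkb2 (chr19:46304677-46304736, plus strand) and Nfkbie (chr17:45555569-45555628, plus strand) are given in the same way.
Rel: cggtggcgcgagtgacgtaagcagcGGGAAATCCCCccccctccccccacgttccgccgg
Nfkb2: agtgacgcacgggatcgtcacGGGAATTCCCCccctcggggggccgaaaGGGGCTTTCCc
Nfkbie: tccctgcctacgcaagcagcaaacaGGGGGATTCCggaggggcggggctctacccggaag
These matches are letters in a window and do not show that the sites are bound.

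In the mm10 annotation of GENCODE the inhibitor genes lie at chr12:55489410-55492647 (Nfkbia, minus strand), chr10:19000910-19015657 (Tnfaip3, minus), chr16:55811375-55838899 (Nfkbiz, minus), chr17:45555703-45563169 (Nfkbie, plus) and chr7:28758251-28767512 (Nfkbib, minus). The subunit genes lie at chr3:135584655-135691547 (Nfkb1, minus), chr19:46304320-46312385 (Nfkb2, plus), chr11:23736847-23770970 (Rel, minus), chr19:5637483-5648130 (Rela, plus) and chr7:19606217-19629438 (Relb, minus). All 10 are annotated as protein coding.

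Libraries were shallow, with 20000 to 114061 counts and a median of 49515. Levels are CPM values, the counts scaled to a common library total by TMM, and 1 count was worth 9.56 to 47.9 CPM. Nfkbia was by far the best counted member, with 11856 counts over all libraries and a count in every library. Tnfaip3 had 4123 counts and Nfkbiz 3116, whereas Rel had 271, Relb 302, Nfkbib 324 and Rela 341 counts in all 120 libraries, so small differences in these genes were not detectable at this depth. At high doses of halofuginone, mean totals differed from controls by -6172 counts with proline and -15876 without at T0. The differences were -19349 and -27428 counts at T1, and -33092 and -30853 counts at T4. In exact permutation tests (two-sided, 12 tests) the adjusted p was 0.291 and 0.0123 at T0, 0.042 and 0.00733 at T1, and 0.00277 and 0.00412 at T4. These libraries also differed from controls in content. Rn45s, the precursor of ribosomal RNA, took 65.1% of counts with proline and 64.6% without at T4, against 38.0% in controls (exact permutation test, two-sided, p = 5.39e-05 for each arm at each time, the smallest it can give, and adjusted p = 0.000108 over 12 tests). The summed level of the macrophage markers, 13 of 14 of which were present, had a median of 2536 CPM (2286 to 2928) with proline and 2064 CPM (2021 to 2473) without at T0, against 3707 CPM (3473 to 4383) in controls. At T4 the medians were 1572 CPM (959 to 2069) and 1362 CPM (884 to 2043), against 3549 CPM (2842 to 4242). Neutrophil markers, 7 of 8 present, had medians at T0 of 35.4 CPM (0.0 to 109) with proline and 48.2 CPM (0.0 to 128) without, against 292 CPM (175 to 371) in controls. At T4 their medians were 52.3 CPM (23.4 to 81.4) with proline and 22.2 CPM (0.0 to 80.5) without, against 179 CPM (91.7 to 443) in controls, and Elane was at 0 in all of these groups. Markers of B cells, T and NK cells, dendritic cells and fibroblasts had median sums of 0.0 to 24.1 CPM in the high-dose and control libraries of each time, and erythroid and mast cell markers had no count there. The part of these shifts in the results that follow was not tested, and fewer cells and less RNA per cell cannot be told apart.

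**Figure D1:**
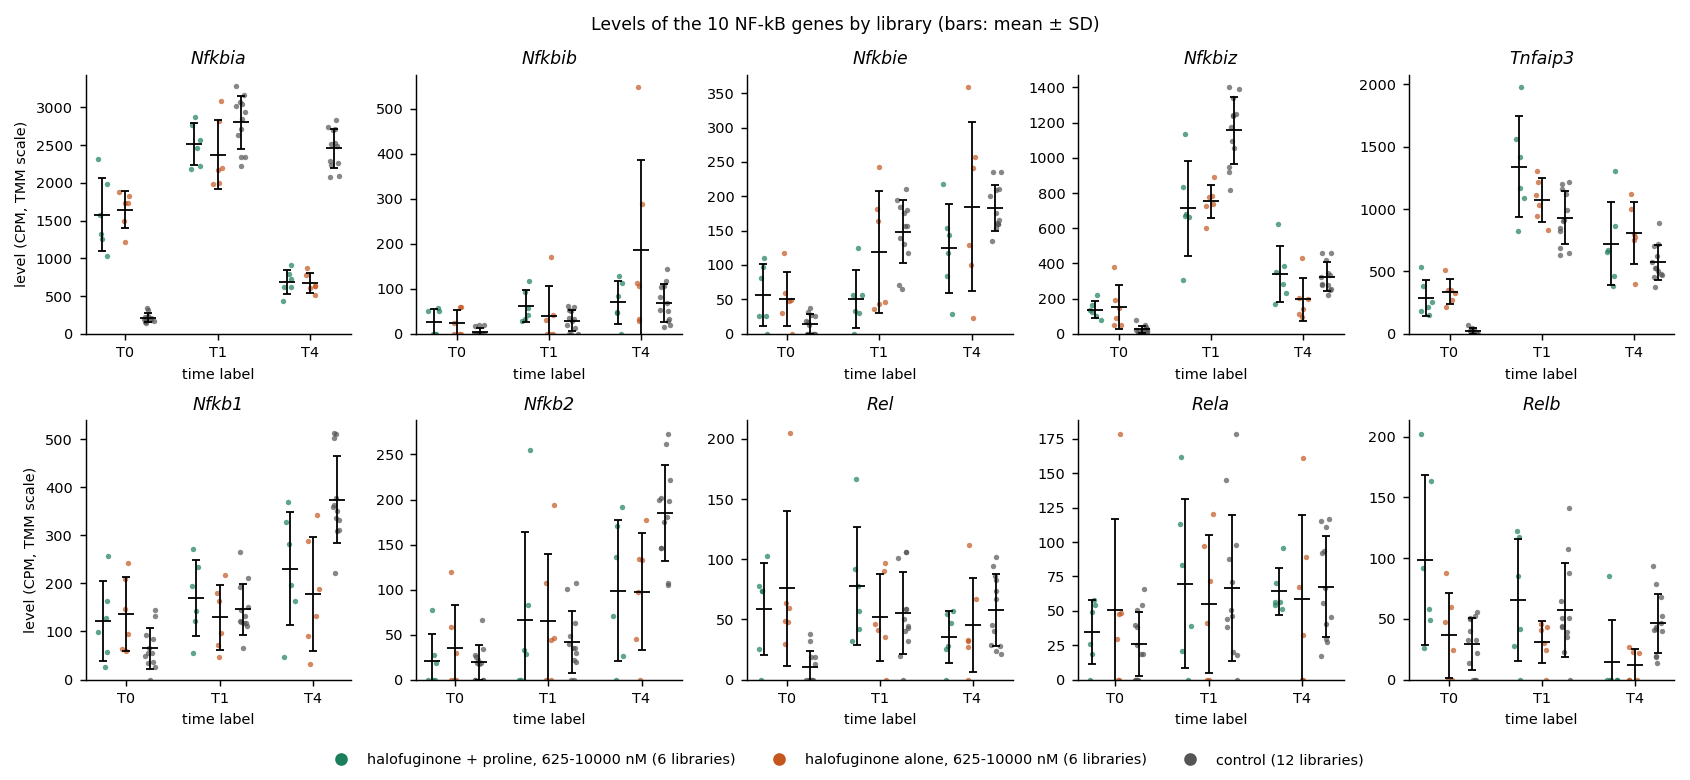
Level of each of the 10 genes (CPM, each panel with its own axis) at T0, T1 and T4 in libraries with high doses of halofuginone and proline, with high doses of halofuginone alone, and in controls; points are libraries, and bars are means with SD. Nfkbia controls sit at 146 to 341 CPM at T0 and at 2221 CPM or above at T1, while both halofuginone arms sit above the controls at T0 and below them at T4.

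In control macrophages Nfkbia, Nfkbiz, Tnfaip3 and Nfkbie were far higher at T1 than at T0, and the subunit genes changed less or reached their highest control level at T4. Nfkbia had a median of 195 CPM at T0 (146 to 341), 2891 CPM at T1 (2221 to 3278) and 2504 CPM at T4 (2072 to 2826). Nfkbiz, whose product IkB-zeta is a nuclear cofactor for secondary response genes such as Il6, had medians of 17.9 CPM (0 to 75.7), 1209 CPM (815 to 1403) and 303 CPM (218 to 460). Tnfaip3, which encodes the ubiquitin-editing enzyme A20, had medians of 17.1 CPM (0 to 66.3), 909 CPM (631 to 1213) and 528 CPM (375 to 892). For each of these 3 genes no T1 or T4 library overlapped a T0 library. At T1 against T0, the log2 fold change was 3.68 ± 0.13 (SE) for Nfkbia, 5.47 ± 0.23 for Nfkbiz and 5.25 ± 0.24 for Tnfaip3, or 12.9-fold, 44.4-fold and 38.0-fold (edgeR quasi-likelihood test, Benjamini-Hochberg adjusted p = 4.54e-62, 1.30e-53 and 1.86e-47, n = 12 per time).

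The remaining inhibitors and the subunits were also compared at T1 and T0. Nfkbie, the gene of IkB-epsilon, another cytoplasmic inhibitor, averaged 148 ± 46.1 CPM at T1 and 14.3 ± 14.2 CPM at T0 (SD, n = 12 each), a log2 fold change of 3.17 ± 0.38 with no overlap (adjusted p = 1.33e-12). Nfkbib, the gene of IkB-beta, averaged 29.4 ± 23.2 CPM at T1, against 3 counts in all 12 libraries at T0 (9 of them at 0), so that no fold is given. It passed the test (adjusted p = 0.00912), and the 2 times overlapped. Among the subunits, Rel rose by 2.35 ± 0.56 (adjusted p = 0.00105) and Nfkb1 by 1.15 ± 0.27 (adjusted p = 0.00121) on the log2 scale. Rela, the gene of the main activating subunit (1.29 ± 0.46, adjusted p = 0.0902), Nfkb2 (1.11 ± 0.46, adjusted p = 0.209) and Relb (0.89 ± 0.45, adjusted p = 0.384) did not pass. Thus 7 of 10 members were called at T1, all higher, where 5.56% of the 5087 genes tested were called and 4.89% were called higher. The members' median log2 fold change was 2.41, beside -0.03 over all genes tested.

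At T4 the subunit genes Nfkb1 and Nfkb2 stood well above T0, beside the inhibitors. Nfkb1 averaged 374 ± 90.4 CPM at T4 and 64.7 ± 42.5 CPM at T0 (SD, n = 12 each), a log2 fold change of 2.52 ± 0.24 (adjusted p = 1.79e-18). Nfkb2, the precursor gene of the noncanonical subunit p52, averaged 185 ± 53.2 CPM at T4 and 19.1 ± 19.1 CPM at T0, a log2 fold change of 3.11 ± 0.38 (adjusted p = 1.43e-12). Neither gene had a T4 library within the T0 range. In all, 9 of 10 members were called at T4 against T0, all higher, where 33.9% of genes were called and 18.2% were called higher. Of the 10 members, 6 showed no overlap, and overlap was not counted over all genes. Nfkbia was at 3.54 ± 0.13, Tnfaip3 at 4.60 ± 0.25, Nfkbiz at 3.69 ± 0.26, Nfkbie at 3.52 ± 0.36 and Rel at 2.40 ± 0.54 on the log2 scale. Rela passed at T4, at 67.4 ± 36.7 CPM against 25.8 ± 23.6 CPM at T0 (adjusted p = 0.00845). The exception was Relb, the partner of p52, at 46.4 ± 24.2 CPM at T4 and 29.1 ± 21.6 CPM at T0 (log2 fold change 0.62 ± 0.45, adjusted p = 0.307).

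At T4 against T1, Nfkbiz fell by 1.79 ± 0.15 on the log2 scale with no overlap (adjusted p = 1.27e-22), and Tnfaip3 fell by 0.65 ± 0.15 with overlap (adjusted p = 0.000158). Over the same interval Nfkb1 rose by 1.37 ± 0.21 (adjusted p = 1.89e-08), Nfkb2 by 2.00 ± 0.33 (adjusted p = 1.40e-07) and Nfkbib by 1.17 ± 0.44 (adjusted p = 0.0343). Nfkbia differed by -0.15 ± 0.10 (95% interval -0.35 to 0.06, adjusted p = 0.323), the smallest change of the inhibitors over that interval. That made 5 of 10 members called, beside 28.3% of all genes tested; 3 were higher, beside 15.3% of genes, and 2 lower, beside 12.9%. The Nfkbib call was lost with no filter on low counts, with an adjusted p of up to 0.0625 over the alternatives. The 3 comparisons between times share control libraries and are not independent of one another.

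**Figure D2:**
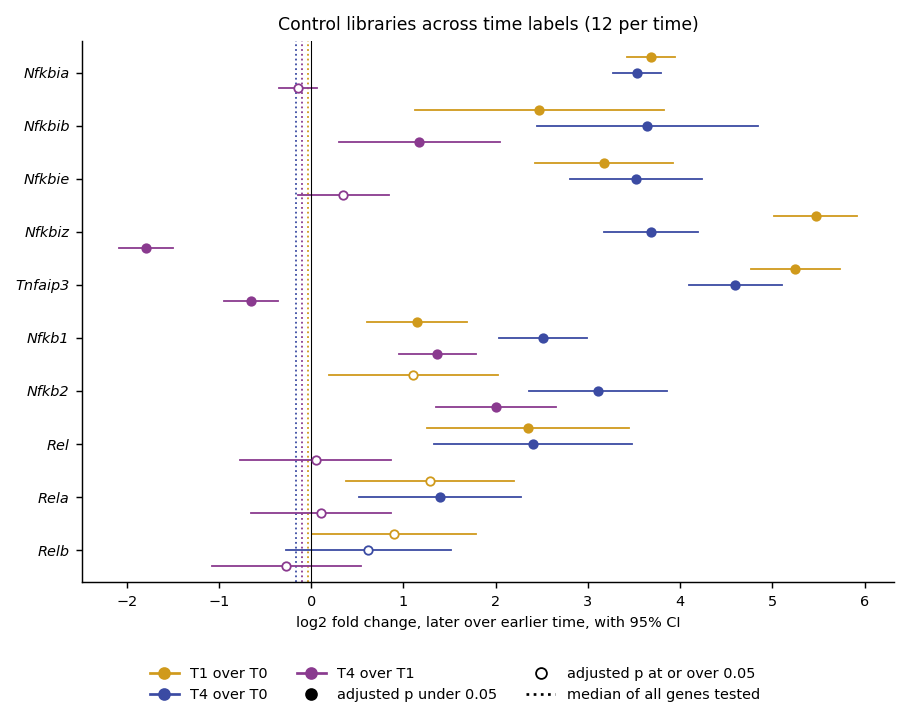
Log2 fold change of each gene between times in control macrophages (T1 against T0, T4 against T0 and T4 against T1), with 95% intervals from the edgeR fit. Nfkbiz sits at 5.47 at T1 and falls by 1.79 from T1 to T4, while Nfkb2 rises by 2.00 over that second interval.

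At high doses of halofuginone, with or without proline, Nfkbia, Tnfaip3, Nfkbiz and Rel were higher than in controls at T0, before LPS on the reading given above. Nfkbia had 1031, 1446 and 2314 CPM (lowest, median and highest of 6) with halofuginone and proline and 1218, 1731 and 1873 CPM with halofuginone alone, against 146, 195 and 341 CPM in the 12 controls. Neither arm overlapped the controls. The log2 fold change was 2.71 ± 0.19 with proline (6.53-fold, adjusted p = 7.64e-44) and 2.83 ± 0.19 without (7.09-fold, adjusted p = 5.67e-47). For comparison, the LPS response of Nfkbia in controls was 12.9-fold at T1.

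Tnfaip3 had 147, 233 and 532 CPM with proline and 215, 340 and 508 CPM without, against 0, 17.1 and 66.3 CPM in controls, again with no overlap. It rose 10.3-fold with proline (log2 fold change 3.36 ± 0.42, adjusted p = 7.41e-14) and 12.7-fold without (3.67 ± 0.41, adjusted p = 6.49e-17). Nfkbiz had 75.9, 129 and 218 CPM with proline and 47.8, 119 and 381 CPM without, against 0, 17.9 and 75.7 CPM in controls, so that only the arm with proline stood clear of the controls, by a narrow margin. Its log2 fold change was 2.28 ± 0.52 with proline (adjusted p = 0.000275) and 2.27 ± 0.57 without (adjusted p = 0.00114). Without the first library at 2500 nM, Nfkbiz no longer passed in the arm without proline.

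Rel, the gene of c-Rel, had 0, 73.5 and 103 CPM with proline and 29.8, 54.2 and 205 CPM without, against 0, 0 and 37.8 CPM in controls, and the ranges overlapped. Its fold change passed in both arms (2.26 ± 0.77 with proline, adjusted p = 0.0239, and 2.47 ± 0.80 without, adjusted p = 0.0184) on 0 to 7 counts a library. These calls ended when any of several single libraries was left out: 3 of the 6 with proline, and 2 of the 6 without. With proline, the call also ended without the 10000 nM dose. Without 1 library, the Rel fold change lay between 0.79 and 2.61 with proline and between 2.09 and 2.71 without. Counts of called members were thus 4 of 9 tested in each arm, all higher, beside 17.6% of the 4466 genes tested with proline and 18.4% without; the shares called higher were 4.57% with proline and 3.25% without. Nfkbib did not reach the mean of 1 count per library that the test required at T0. The members' median log2 fold change was 1.73 with proline and 1.43 without, beside -0.55 and -0.86 over all genes tested.

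The other members did not pass at T0. Nfkb1 averaged 122 ± 82.3 CPM with proline and 136 ± 77.0 CPM without (SD, n = 6 each), against 64.7 ± 42.5 CPM in controls (n = 12), with adjusted p-values of 0.266 and 0.251. Relb averaged 98.4 ± 69.9 CPM with proline and 36.6 ± 35.0 CPM without, against 29.1 ± 21.6 CPM in controls, with adjusted p-values of 0.0846 and 0.504. The band averages the log levels of 3 doses, and a dose with no count pulls that average down, which is why the fitted change of Relb without proline was -0.83 although its mean CPM lay above that of controls. With the doses of a band fitted as 1 group, an alternative chosen after seeing the data, this value became 0.17.

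**Figure D3:**
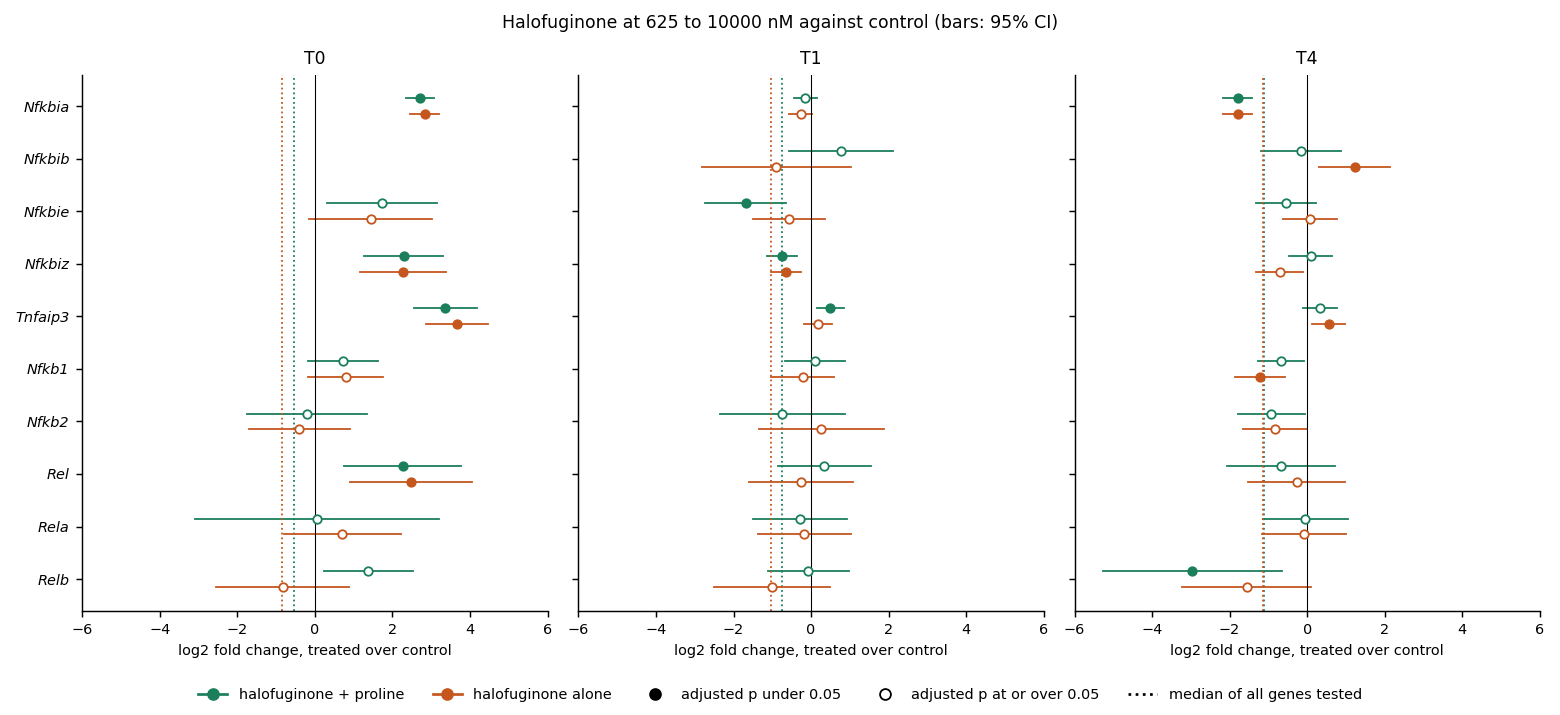
Log2 fold change of each gene against the controls of the same time for high doses of halofuginone with proline and of halofuginone alone, with 95% intervals from the edgeR fits at T0, T1 and T4. Nfkbia lies at 2.71 and 2.83 at T0 and at -1.80 and -1.79 at T4, and all 5 subunits have intervals that cover 0 at T1 in both arms. Filled points have an adjusted p under 0.05, and dotted lines mark the median of all genes tested.

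At middle doses the T0 rise in Nfkbia was smaller with proline than without it. Nfkbia averaged 210 CPM in controls. With proline it averaged 175, 153, 362, 830, 1446, 2146 and 1146 CPM from 2.4 to 10000 nM (2 libraries per dose). Without proline it averaged 242, 385, 1137, 2094, 1476, 1800 and 1657 CPM over the same doses. The curves thus lay apart at 9.7, 39 and 156 nM, and neither stayed above the other over the 3 high doses. At 9.7 nM the libraries with proline had 140 and 165 CPM, against 323 and 446 CPM without proline, and the low doses of the arms were not compared in a test. At the middle doses the libraries with proline had 227 and 497 CPM at 39 nM and 1181 and 478 CPM at 156 nM, against 849 and 1425 CPM at 39 nM and 2590 and 1599 CPM at 156 nM without proline. At each middle dose both libraries with proline lay below both without, although the arms overlap when the doses are pooled. The difference, with proline minus without, was -1.45 ± 0.26 on the log2 scale (2.74-fold lower, 95% interval -1.96 to -0.94, adjusted p = 3.23e-05).

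Nfkbia was the single member called in the middle-dose comparison of the proline arms at T0, where 0.313% of all genes were called and 0.269% were called lower. No member was called in the other 5 comparisons with and without proline, in which the share of genes called was 0.112% at T0 (high doses), 0.0765% and 0.179% at T1 (high and middle doses) and 0.0267% and 0.963% at T4 (high and middle doses). The Nfkbia difference held its call under all 8 other settings and without each of the 8 libraries in turn, with values between -1.86 and -1.23. Tnfaip3 had 94.8 and 171 CPM at 39 nM and 129 and 134 CPM at 156 nM with proline, against 277 and 304 CPM at 39 nM and 392 and 216 CPM at 156 nM without. Its difference of -1.09 ± 0.48 (95% interval -2.02 to -0.15) did not pass (adjusted p = 0.502), although the libraries did not overlap. At high doses the proline arms of T0 differed by -0.12 ± 0.20 for Nfkbia (95% interval -0.51 to 0.28, adjusted p = 1.000) and by -0.31 ± 0.38 for Tnfaip3 (95% interval -1.05 to 0.44, adjusted p = 0.956).

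Against controls, the middle doses without proline raised Nfkbia by 2.74 ± 0.21 (adjusted p = 3.52e-37) and Tnfaip3 by 3.49 ± 0.44 (adjusted p = 7.03e-13), and 2 of 9 members were called, beside 8.13% of genes (3.29% called higher). With proline, Nfkbia (1.28 ± 0.23, adjusted p = 1.36e-05), Nfkbiz (1.95 ± 0.59, adjusted p = 0.0392) and Tnfaip3 (2.40 ± 0.49, adjusted p = 0.000214) were called, 3 of 9 beside 2.89% of genes (1.59% called higher). Nfkbia with proline no longer passed without the second library at 39 nM (0.91). Nfkbiz lost its call without that library, without either library at 156 nM or with no filter on low counts. At low doses no member was called at T0 in either arm by edgeR, beside 0.0224% of genes with proline and 0.649% without. At an unadjusted p under 0.05 there was 1 member with proline and 0 without, beside 219 and 402 of 4466 genes.

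**Figure D4:**
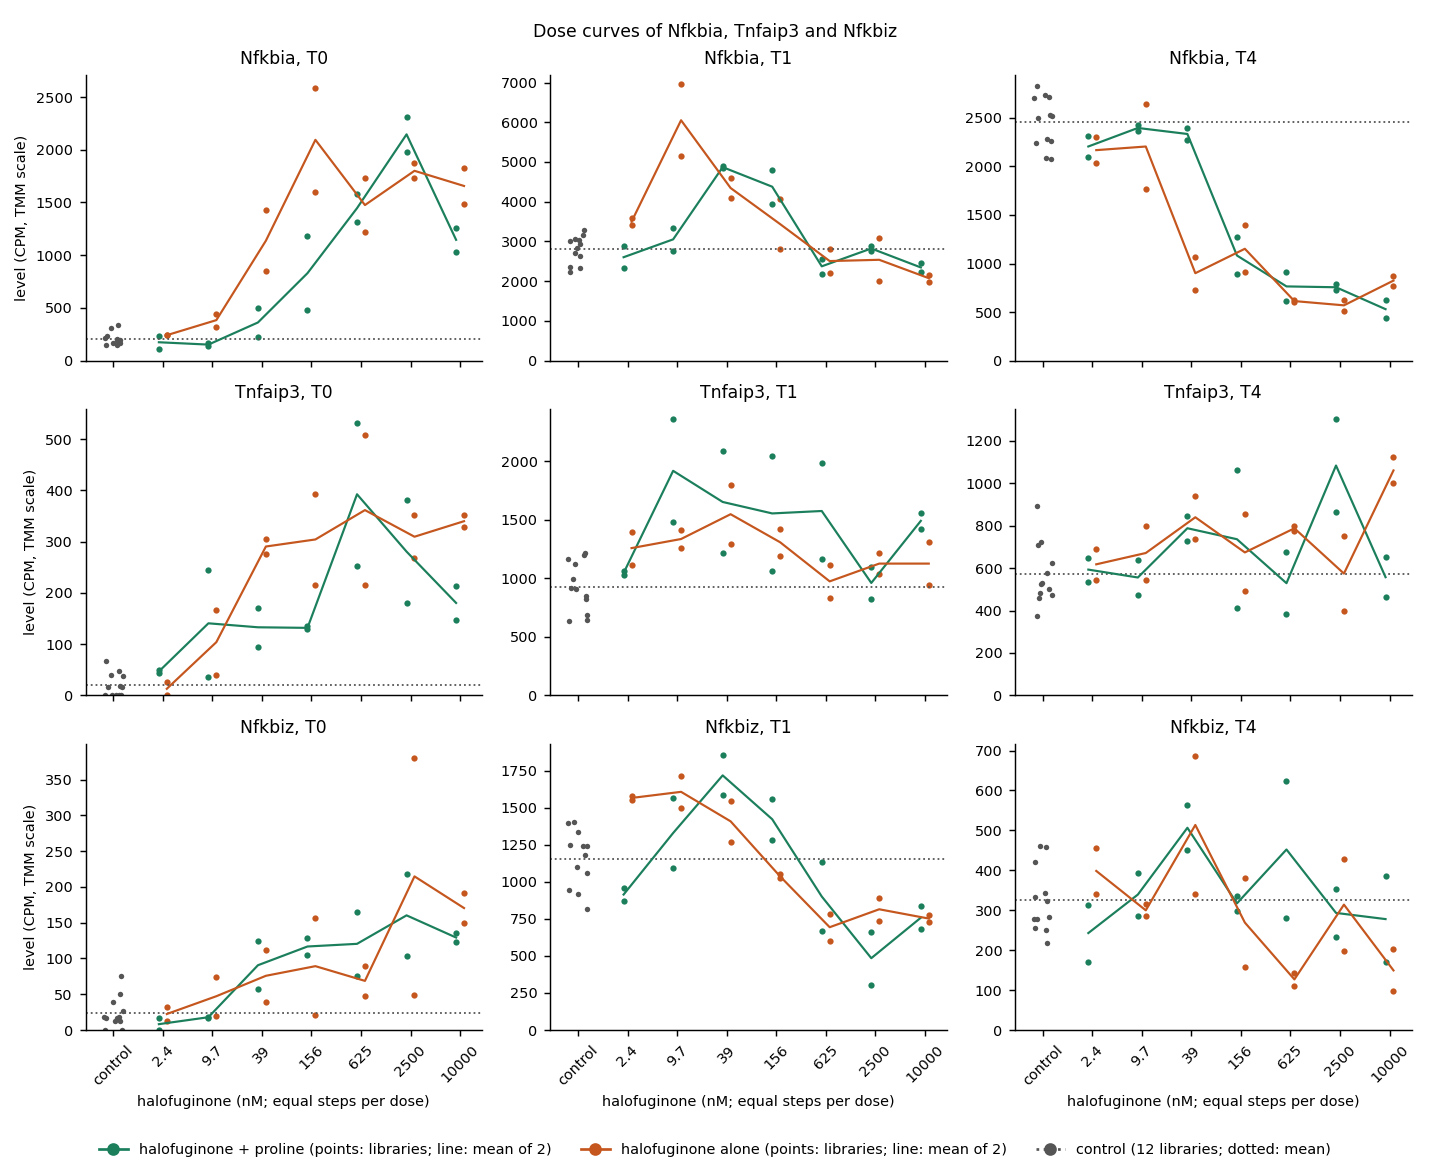
Level of Nfkbia, Tnfaip3 and Nfkbiz (CPM) by halofuginone dose (nM, doses in equal steps, controls at the left) at T0, T1 and T4, with 2 mM proline and without; points are libraries, lines join the means of 2 libraries and the dotted line is the control mean. At T0 the Nfkbia curve without proline reaches 1137 CPM at 39 nM, where the curve with proline is at 362 CPM.

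At T1 few members were called at high doses. Nfkbia had 2188, 2513 and 2876 CPM with proline and 1987, 2184 and 3081 CPM without, against 2221, 2891 and 3278 CPM in controls, and all 3 ranges overlapped. Its log2 fold change was -0.15 ± 0.15 (95% interval -0.44 to 0.15, adjusted p = 0.505) with proline and -0.27 ± 0.15 (95% interval -0.57 to 0.03, adjusted p = 0.195) without. Nfkbiz had 306, 673 and 1135 CPM with proline and 603, 757 and 891 CPM without, against 815, 1209 and 1403 CPM in controls. It fell by 0.75 ± 0.20 with proline (adjusted p = 0.0023) and by 0.65 ± 0.20 without (adjusted p = 0.0116). With median-of-ratios scaling or a minimum count of 10, its changes no longer passed in either arm, nor without proline with DESeq2. Without proline, the Nfkbiz call also ended without the libraries under 30000 counts or without the second library at 625 nM. With proline, Nfkbie fell by 1.69 ± 0.53 (adjusted p = 0.0155), at 50.1 ± 42.2 CPM against 148 ± 46.1 CPM in controls, and Tnfaip3 rose by 0.50 ± 0.18 (adjusted p = 0.0361), at 1341 ± 405 CPM against 929 ± 212 CPM. Both calls ended without the 10000 nM dose or without the libraries under 30000 counts, that of Nfkbie also with DESeq2 or median-of-ratios scaling, and that of Tnfaip3 also with no filter on low counts or without any 1 of 5 of its 6 libraries.

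These made 3 of 10 members called with proline and 1 of 10 without, beside 16.8% and 17.2% of the 3920 genes tested. With proline 14.9% of genes were called lower and 1.94% higher, and without it 15.8% were called lower. Without the libraries under 30000 counts, 1 member was called with proline and 0 without. The members' median change was -0.11 with proline and -0.26 without, beside -0.75 and -1.04 over all genes tested.

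At T1, Nfkbia and Tnfaip3 were the members called higher than controls below the high doses, in some arms and bands only. At middle doses with proline, Nfkbia had 4896 and 4845 CPM at 39 nM and 4803 and 3954 CPM at 156 nM, all above the highest control of 3278 CPM. It rose by 0.71 ± 0.16 (adjusted p = 0.0014), and Tnfaip3, at 1602 ± 539 CPM against 929 ± 212 CPM, rose by 0.76 ± 0.19 (adjusted p = 0.00608); 2 of 10 members were called beside 2.63% of genes (1.22% called higher). Without proline, Tnfaip3 rose by 0.57 ± 0.20 (adjusted p = 0.047), 1 of 10 members beside 8.19% of genes (1.68% called higher), and Nfkbia at 0.44 ± 0.16 did not pass (adjusted p = 0.0748). At low doses without proline, Nfkbia had 3579 and 3416 CPM at 2.4 nM and 5148 and 6953 CPM at 9.7 nM, and rose by 0.72 ± 0.16 (adjusted p = 0.00175), 1 of 10 members beside 1.22% of genes (0.893% called higher). Its 9.7 nM mean of 6050 ± 1276 CPM was the highest of all 45 groups. These calls rest on few libraries: that of Nfkbia at low doses was lost without the second 9.7 nM library (adjusted p of up to 0.786 over all alternatives), and that of Tnfaip3 without proline was lost without any 1 of its 4 libraries. At middle doses with proline, Nfkbia was not called without the first 156 nM library (0.58 at the lowest), nor Tnfaip3 without the second library of either dose (0.49 at the lowest). With no filter on low counts, no call at middle doses held in either arm. At low doses with proline Nfkbia had 2875 and 2333 CPM at 2.4 nM and 2761 and 3345 CPM at 9.7 nM, against a control median of 2891 CPM. No member was called by edgeR there, where 0.0% of genes were called. An unadjusted p under 0.05 was found for 2 members, beside 157 of the 3920 genes tested.

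At T4 Nfkbia was far below its control level at high doses. It had 437, 674 and 911 CPM with proline and 510, 628 and 875 CPM without, against 2072, 2504 and 2826 CPM in controls, with no overlap. It fell by 1.80 ± 0.20 on the log2 scale with proline (adjusted p = 1.10e-17) and by 1.79 ± 0.19 without (3.47-fold lower, adjusted p = 5.00e-18). In the same libraries Tnfaip3, the other inhibitor known for feedback, was at 723 ± 331 CPM with proline and 808 ± 248 CPM without (SD, n = 6 each), against 572 ± 143 CPM in controls (n = 12). Its log2 fold change was 0.34 ± 0.22 with proline (adjusted p = 0.23) and 0.55 ± 0.21 without (adjusted p = 0.0326). Over the alternatives the changes without proline ranged from -1.86 to -1.39 for Nfkbia and from 0.37 to 0.96 for Tnfaip3. The Tnfaip3 call ended without any 1 of 5 of its 6 libraries or without the 10000 nM dose. It also ended with no filter on low counts or with the band as 1 group.

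Nfkb1 had 47.9, 240 and 368 CPM with proline and 32.2, 160 and 342 CPM without, against 222, 355 and 514 CPM in controls, with overlap in both arms. It fell by 1.21 ± 0.33 without proline (adjusted p = 0.0019) and did not pass with it (-0.67 ± 0.30, adjusted p = 0.0821). Without the 10000 nM dose the fall without proline was no longer called, at -0.54. Nfkb2 averaged 98.9 CPM with proline and 97.7 CPM without, against 185 CPM in controls, with changes of -0.92 ± 0.44 (adjusted p = 0.0993) and -0.83 ± 0.42 (adjusted p = 0.114). Relb had 3 counts in all 6 libraries of each arm, with 5 of 6 libraries at 0 with proline and 3 of 6 without, so no fold is given. It passed with proline (adjusted p = 0.0428) and not without (adjusted p = 0.137), and the call did not survive the fit with a band's doses as 1 group (adjusted p = 0.19) or without any 1 of 5 of its 6 libraries.

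Nfkbib averaged 186 ± 201 CPM without proline against 68.5 ± 42.2 CPM in controls, a log2 fold change of 1.22 ± 0.47 (adjusted p = 0.0309). Of its 6 libraries, the second at 10000 nM had 548 CPM and the second at 625 nM 289 CPM, while the others lay between 28.5 and 112 CPM. Without that 10000 nM library the value was 0.42 and did not pass, and the call also ended without the first 2500 nM or the second 625 nM library, without the 10000 nM dose or with no filter on low counts. With proline Nfkbib averaged 70.2 ± 47.8 CPM and did not pass (adjusted p = 0.83). Counts of called members at T4 were 2 of 10 with proline, both lower, and 4 of 10 without, with 2 higher and 2 lower. They stand beside 29.3% and 32.1% of the 3739 genes tested, with 26.0% called lower with proline, and 28.2% lower and 3.82% higher without. The members' median change of -0.61 with proline and -0.49 without lay above the -1.12 and -1.14 of all genes tested. Leaving out the 10000 nM dose left 1 member called without proline.

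At middle doses of T4, Nfkbia had 2397 and 2270 CPM at 39 nM and 1272 and 894 CPM at 156 nM with proline, and 1069 and 732 CPM at 39 nM and 912 and 1392 CPM at 156 nM without. The controls lay between 2072 and 2826 CPM. It fell by 1.22 ± 0.22 without proline (adjusted p = 9.52e-07), 1 of 10 members beside 17.9% of genes (15.2% called lower), and the change of -0.58 ± 0.20 with proline did not pass (adjusted p = 0.0608). The median change over all genes tested was -1.08 without proline and -0.69 with it, close to these values of Nfkbia. The difference between the arms, 0.64 ± 0.26 with proline minus without (95% interval 0.13 to 1.15), did not pass either (adjusted p = 0.287). No member was called by edgeR at middle doses with proline, beside 6.12% of genes. At an unadjusted p under 0.05 there were 2 of 10 members, beside 831 of the 3739 genes tested. At low doses 0 members were called in either arm, beside 0.134% of genes with proline and 1.44% without. Unadjusted p-values under 0.05 were found there for 1 member with proline and 0 without, beside 199 and 422 of the 3739 genes.

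The change from T0 differed between halofuginone-treated and control cells, which was tested as an interaction over all 120 libraries: the difference from controls at T1 or T4 minus the difference from controls at T0. At T1 it was -2.99 ± 0.24 for Nfkbia with proline (adjusted p = 8.87e-25) and -3.18 ± 0.24 without (adjusted p = 1.14e-26). At T4 it was -4.71 ± 0.25 with proline (adjusted p = 1.03e-43) and -4.82 ± 0.25 without (adjusted p = 5.17e-45). In these arms Nfkbia had its T1 level near that of controls but started higher, so its span between T0 and T1 was narrower. Its mean at T4 lay below its own T0 mean in both arms, at 684 ± 163 CPM against 1579 ± 484 CPM with proline and 669 ± 132 CPM against 1644 ± 247 CPM without, whereas in controls the T4 mean lay above that of T0.

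Tnfaip3 (-2.99 with proline and -3.54 without at T1, -3.22 and -3.30 at T4) and Nfkbiz (-3.17 and -2.98 at T1, -2.40 and -3.16 at T4) were called in both arms at both times. In all, 4 of 10 members had a called negative interaction with proline and 3 without at T1, beside 1.6% and 1.32% of the 4177 genes tested. At T4, 7 members did with proline and 5 without, beside 5.55% and 5.24% of genes. No member had a called positive one, and the members' medians lay between -2.44 and -1.81, beside -0.66 to -0.39 over all genes tested. At T4 with proline the count fell to 4 with DESeq2, with median-of-ratios scaling or with no filter on low counts, and at T4 without proline it fell to 3 with no filter. The calls of Nfkbia, Nfkbiz and Tnfaip3 held in all of these. A change against T0 controls enters every one of these interactions, so the T1 and T4 values share libraries.

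**Figure D5:**
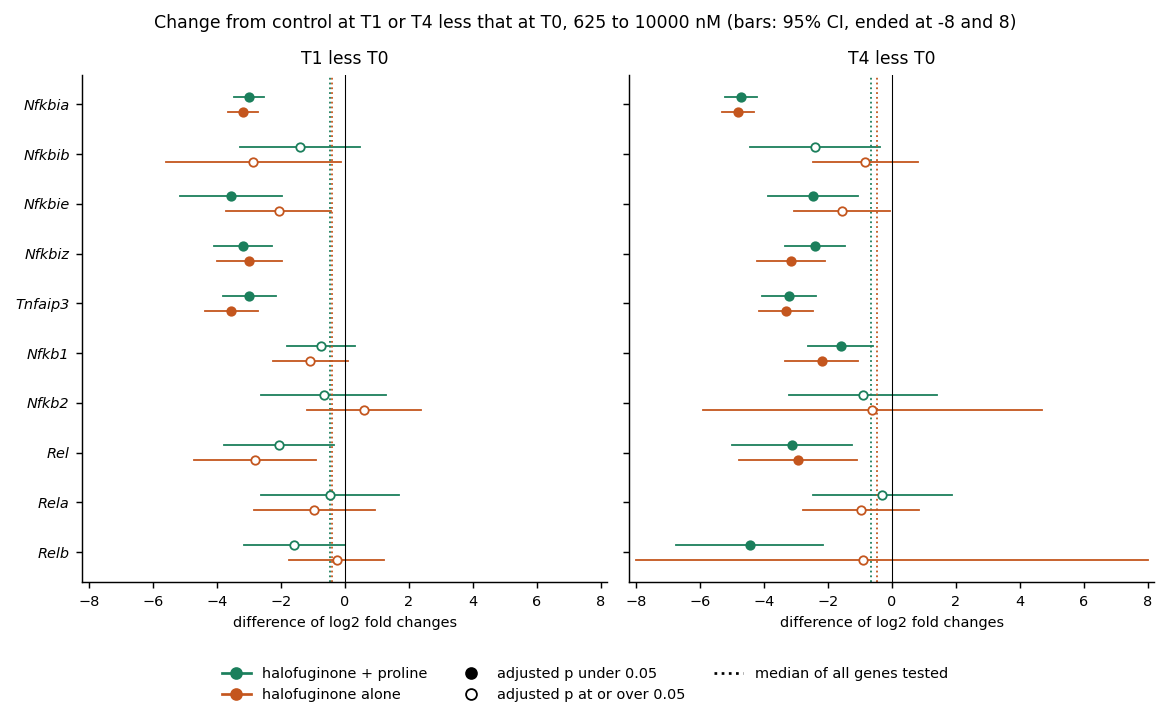
Interaction on the log2 scale for each gene (difference from controls at T1 or T4 minus the difference at T0) for high doses of halofuginone with proline and alone, with 95% intervals, which are ended at the edges of the axis. Nfkbia lies between -2.99 and -3.18 at T1 and between -4.71 and -4.82 at T4.

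The pathway around the members was described with 3 lists of genes. The lists were chosen with earlier results of these data known, so their counts are descriptions and not independent support. Of 40 listed NF-kB target genes, 34 were tested in controls, and 31 were higher at T1 than at T0 and 0 lower, with a median log2 fold change of 3.11. Examples are the chemokine genes Cxcl2 (6.79) and Ccl4 (6.13) and the cytokine gene Il1b (7.02). Over all 5087 genes tested, 4.89% were called higher at T1 than at T0. Of 32 other inhibitors and modulators, 8 of the 23 tested were higher at T1, with a median of 0.89. They included Tnip3 (2.48), a partner of A20, and Peli1 (2.45), a ubiquitin ligase. Socs3, a suppressor of cytokine signalling, was also called, at 332 CPM at T1 against 3 counts in all 12 libraries at T0, so that no fold is given. Of 35 genes from receptors to IKK, 2 of the 23 tested were higher, Cd14 (1.92), a co-receptor for LPS, and Tnfrsf1b (1.26), a TNF receptor; Irak2, a kinase downstream of Toll-like receptors, did not pass (adjusted p = 0.0594). By T4 against T0 the counts were 33 higher and 1 lower of 34 targets, 15 higher and 1 lower of 23 other modulators, and 10 higher and 2 lower of 23 from receptors to IKK. Over all genes 33.9% were called at T4 against T0, with 18.2% called higher and the rest lower. Cxcl10 was at 8.62, Peli1 at 4.09 and Tab2, an adaptor of the TAK1 kinase, at 1.64.

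At high doses of T0 the targets moved in the direction of Nfkbia and Tnfaip3. Of 29 tested, 17 were higher with proline (median 1.92) and 16 without (median 2.26), and 0 were lower in either arm, beside 4.57% and 3.25% of all genes called higher. Cxcl2 averaged 2776 CPM with proline and 2689 CPM without, against 27.7 CPM in controls, and Gadd45b, a stress response gene (4.12 with proline, 4.29 without), also rose. Of 17 other modulators tested, 3 were higher in each arm, and 0 with proline and 2 without were lower. Sqstm1 (1.29 with proline, 1.15 without), Tax1bp1 (381 CPM with proline and 337 CPM without, against 143 CPM in controls) and Traf1 (2.49 with proline, 2.44 without) were the 3 with the smallest adjusted p in both arms; their products are an autophagy receptor, an adaptor of A20 and an adaptor at TNF receptors. Of 19 genes from receptors to IKK, 0 were higher and 2 lower with proline, and 1 was higher and 2 lower without. Over all 4466 genes tested, 784 were called with proline, 204 of them higher, and 823 without, 145 of them higher. Most calls over all genes were thus lower. Cd14, which is also in the macrophage list, averaged 128 ± 127 CPM with proline and 85.8 ± 57.7 CPM without, against 174 ± 72.0 CPM in controls. It was called lower at -1.42 with proline (adjusted p = 0.0205) and -1.15 without (adjusted p = 0.0408), but with the doses of a band as 1 group it was at -0.51 (adjusted p = 0.407) and -1.11 (adjusted p = 0.0633) and did not pass in either arm. Traf3, an adaptor that restrains the noncanonical pathway, passed without proline (adjusted p = 0.0184) on 11 counts in 6 libraries, against 3 counts in the 12 control libraries, so no fold is given. At middle doses 6 of 29 targets were higher with proline and 18 without, beside 1.59% and 3.29% of all genes. In the direct comparison 5 of 29 were lower with proline than without, beside 0.269% of all genes.

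At T1 and T4 more of the listed targets were lower than higher at high doses. At T1, 3 of 33 targets were higher and 12 lower with proline, and 2 were higher and 12 lower without. Over all genes 14.9% were called lower with proline and 15.8% without, and 1.94% were called higher with proline. The targets' medians were -0.43 with proline and -0.51 without, above the -0.75 and -1.04 of all genes. The log2 fold change of Il1b was -1.67 with proline and -1.82 without, and that of Cd14 -2.31 and -2.39. At T4, 1 target was higher and 16 lower with proline, and 0 were higher and 18 lower without, with medians of -1.03 and -1.14, close to the medians over all genes of -1.12 and -1.14. The log2 fold change of Ccl5 was -2.10 with proline and -3.00 without, that of Il1b -2.19 and -2.37, and that of Cd14 -2.77 and -2.93. Of 19 genes from receptors to IKK, 7 were lower with proline and 9 without at T4, and 0 were higher. Over all genes, 26.0% were called lower with proline and 28.2% without. The targets' interactions were called negative for 14 of 33 at T1 in each arm, beside 1.6% of all genes with proline and 1.32% without. At T4 they were called negative for 20 with proline and 21 without, beside 5.55% and 5.24% of all genes. In each arm and at each time 0 were called positive.

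Over the 45 group means of log2 CPM, Nfkbia ran most like Cxcl3 (Pearson r = 0.91), Tnf (0.90) and Pim1 (0.897) among 1008 genes with a mean of at least 5 counts per library. For Tnfaip3 they were Nlrp3 (0.904), Nfkbiz (0.893) and Tnf (0.858), and for Nfkbiz, Tnfaip3 (0.893), Errfi1 (0.881) and Tnfsf9 (0.861). Nfkbie was closest to Ccl3 (0.845), Irg1 (0.839) and Cxcl10 (0.838), and Nfkbib to Ptgs2 (0.84). The subunits had lower best values, from 0.64 for Rel with Dusp2 to 0.753 for Nfkb1 with Cd40. All genes of a group share its libraries and their depth, and the subunits have low counts, so these correlations are descriptions without a test. The highest of the 45 group means was at T1 for Nfkbia, Nfkbiz and Tnfaip3 and at T4 for Nfkb1, Nfkb2, Nfkbib and Nfkbie. For the low-count subunits the first place is not settled: Rela had 109 ± 29.9 CPM at 39 nM with proline at T1 and 109 ± 41.2 CPM at 39 nM alone at T0. Rel had 127 ± 111 CPM at 2500 nM alone at T0 and 112 ± 78.0 CPM at 10000 nM with proline at T1, and Relb had 147 ± 78.3 CPM at 625 nM with proline at T0 and 120 ± 3.78 CPM at 2500 nM with proline at T1, within their spread. For Nfkbib and Nfkb2 the highest T4 mean also lay within its SD of a T1 mean. For Nfkbia the order began with 9.7 nM alone (6050 ± 1276 CPM), 39 nM with proline (4870 ± 36.03 CPM), 156 nM with proline (4378 ± 600.3 CPM) and 39 nM alone (4345 ± 372 CPM), all at T1, and each of these differed from the next by less than the larger of their SDs (n = 2 each). It ended with T0 controls (210 ± 60.1 CPM), 2.4 nM with proline (175 ± 84.4 CPM) and 9.7 nM with proline (153 ± 18.2 CPM) at T0, which also lay within their spread.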

How the data were processed

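The deposited table holds, per gene symbol, raw 3′ counts of modified SCRB-Seq libraries (digital gene expression), which the authors did not normalise. BWA and mm10 are named in the submitters' processing notes without versions; for the counting program, strand and molecular identifiers, the settings used were not given in the sources used here. Unstranded counting would mix a gene with antisense transcripts. Counts were scaled by TMM and tested with edgeR 4.0.16 (quasi-likelihood, R 4.3.3, genes with a mean of at least 1 count per library, Benjamini-Hochberg over all genes tested, threshold 0.05). The fits held 36 control libraries for the effect of time, 40 libraries of 1 time for halofuginone and proline, and 120 for interactions. The log levels of a band's doses were averaged. CPM values are on the TMM scale, and correlations used log2 CPM with an offset of 0.5 counts. SEs were derived from each test's F statistic and fold change, and intervals are 95%.

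Alternatives were DESeq2 1.42.0, median-of-ratios scaling, other filters, removal of dominant RNAs, libraries and doses left out, a replicate block, and bands as 1 group (chosen after seeing the data). The fit was tested on simulated data. The members and lists were chosen with earlier results of these data known. All 10 members were followed, but not every one is given a value in each comparison. In the comparisons of halofuginone with controls, members without a value were not called or not tested. Of the 3 pathway lists, the 3 genes with the smallest adjusted p per comparison could be named. Likewise, the 3 genes most alike in pattern to each member could be named. Totals ran from 20000 to 114061 counts per library, so that 1 count is a coarse step for the low members; counting error alone does not cover the spread between libraries.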

Additional observations from a re-analysis of the deposited data

Results flagged for a closer look

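No group of the study held between 4 and 10 libraries (2 per dose and arm, 12 controls per time), so no search for a single outlying library was made. The results flagged here are those in which the effect of halofuginone differed between times, by the interaction test over all 120 libraries with edgeR (the difference from controls at T1 or T4 minus that at T0, log2, high doses, adjusted p under 0.05). No explanation of them was tested.

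At T1 with proline, the differences were -2.99 for Nfkbia, -3.55 for Nfkbie, -3.17 for Nfkbiz and -2.99 for Tnfaip3. At T1 without proline, they were -3.18 for Nfkbia, -2.98 for Nfkbiz and -3.54 for Tnfaip3. At T4 with proline, they were -4.71 for Nfkbia, -2.47 for Nfkbie, -2.40 for Nfkbiz, -3.22 for Tnfaip3, -1.59 for Nfkb1, -3.12 for Rel and -4.44 for Relb. At T4 without proline, they were -4.82 for Nfkbia, -3.16 for Nfkbiz, -3.30 for Tnfaip3, -2.19 for Nfkb1 and -2.92 for Rel. The Relb value rests on 3 counts in the 6 libraries of that arm at T4, so it gives a direction and no fold. Those of Nfkb1, Rel and Nfkbie at T4 did not pass under every alternative, with adjusted p of up to 0.34 for Nfkb1, 0.134 for Rel and 0.142 for Nfkbie with proline. The Relb interaction at T4 with proline was not called with DESeq2.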

How the results depend on the processing

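No called value reversed its direction under any alternative. Of 260 counts of called members under other settings 225 stayed within 1.5 times of the reported count, and of 124 counts with 1 library left out 108 did. Leaving out libraries was run for the treated libraries of high and middle doses and for low doses without proline at T1; it was not run for other low doses, for the interactions or for the groups of 12 controls. In all settings tried for them, Nfkbia and Tnfaip3 at T0 (high doses in both arms, middle doses without proline), Nfkbia at T4 (high doses in both arms, middle doses without proline) and the T1 and T4 calls against T0 in controls kept their calls, where tested. The causes of the changes that follow were not tested.

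With filterByExpr at a minimum count of 10, fewer members were tested: 5 of 5 tested were called at T4 against T0 in controls, 2 of 3 at high doses of T0 in each arm, 2 of 5 at middle doses without proline at T1, and at middle doses of T4 1 of 7 with proline and 2 of 7 without. With no filter, counts were 0 in both arms at middle doses of T1, 1 with proline and 2 without at high doses of T4, and 4 with proline and 3 without for the T4 interactions. Median-of-ratios scaling gave 1 at high doses of T1 with proline, 2 at middle doses of T1 without, and 4 for the T4 interaction with proline; DESeq2 gave 2 and 4 for the last 2 of these. Removing dominant RNAs gave 2 at middle doses of T1 without proline and 1 at middle doses of T4 with it. Without libraries under 30000 counts, counts at high doses of T1 were 1 with proline and 0 without. Without 10000 nM, they were 1 at T1 with proline and 1 at T4 without. With the doses of a band as 1 group, chosen after seeing the data, they were 0 at middle doses of T1 without proline and 1 at high doses of T4 with it. Median-of-ratios scaling moved the median log2 fold change of all genes by 0.21 with proline and 0.33 without at high doses of T0, 0.23 and 0.28 at T1, and 0.17 in both arms at T4.

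With 1 library left out, counts ranged at T0 from 3 to 5 with proline and from 2 to 4 without at high doses, and from 1 to 3 at middle doses with proline. At T1 they ranged from 0 to 1 at high, middle and low doses without proline, from 1 to 3 at high doses with it and from 1 to 2 at middle doses with it. At T4 they ranged from 1 to 3 with proline and from 2 to 4 without at high doses.

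The labels number the libraries of each group, so a fit with the replicate number as a block was made. The correlation of deviations over same-numbered pairs of controls had medians of 0.02 to 0.06 and reached 0.30, beside medians of -0.01 to 0.003 over other pairs, and it passed 0.1 in at most 4 of 12 pairs, so the numbers were not taken to pair the libraries. With the block, 2 members were called in each arm at high doses of T0 and 0 at middle doses with proline; 0 were called at high, middle and low doses of T1; and 1 was called in each arm at high doses of T4. The controls' counts were 7, 9 and 4, the interactions' 4 and 6 with proline and 3 and 5 without, and Nfkbia with proline minus without at middle doses of T0 stayed called.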

Other observations

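Single libraries stood apart from others of nearby doses, which the labels do not allow to be treated as replicates. At T0 with proline, 1 of the 4 low-dose libraries had 244 CPM of Tnfaip3, and the other 3 had 36.7 to 49.3 CPM. At T4 without proline, 1 of the 6 high-dose libraries had 429 CPM of Nfkbiz, where the median was 171 CPM. Among pairs of members over the 45 group means, Nfkbia correlated with Nfkbiz (Pearson r = 0.84) and Tnfaip3 (0.79), and Nfkbie with Tnfaip3 (0.79).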
